A study of Mus musculus with 6 samples.

Results

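The genes of the histones, the proteins around which DNA is wound in chromatin, were followed in RNA of primary neutrophils from mouse bone marrow. Members were chosen by symbol, as the genes whose names begin with Hist1h to Hist4h and those named in the H1f, H2a, H2b, H2af, H3f, H3 and H4 series, and 110 of the 52636 genes listed met this rule. Of these, 70 belonged to the Hist1 to Hist4 gene clusters and 40 lay outside them. The 40 genes outside held the histone variants, 18 H2al genes, several pseudogenes and the antisense transcript H3f3aos, which is no histone gene. The libraries came from C57BL/6N mice aged 10 weeks, 3 labelled WT and 3 labelled LRP5-null, whose genotype label is LRP5f/f/Lyz2Cre+. In the latter, Cre recombinase is expressed from the Lyz2 gene, which is active in neutrophils, monocytes and macrophages alike, and the labels do not say whether the WT mice carried the floxed allele or Cre. The comparison asked how expression in neutrophils differs where the Wnt co-receptor LRP5 is removed from myeloid cells. Nothing in the labels says whether each library came from its own animal, so p-values measure only the spread between these libraries.

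Histone genes fall into 2 kinds. Most of those in the clusters are replication-dependent. Cells make their mRNAs in S phase, and these mRNAs mostly end in a short stem-loop bound by the protein SLBP in place of a poly(A) tail. The genes outside the clusters include those of replacement variants such as H3.3, H2A.Z and macroH2A, whose mRNAs carry poly(A) tails and are made throughout the cell cycle and in cells that no longer divide. Mature neutrophils do not divide, whereas their precursors in the bone marrow do, and neutrophils can release their chromatin as extracellular traps, in which histones are a main protein component.

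The stem-loop is shown here for the members on which the results turn, because the kind of mRNA end bears on how a histone transcript can be captured. It was searched for as a 6-base stem beginning with GG, a 4-base loop and the exact reverse complement of the stem, within 100 genomic bases after the stop codon in NCBIM37 (mm9). A match was present in 60 of 67 cluster genes that could be searched (89.6%) and in 2 of 17 genes outside the clusters, H2afx and H2bfm, against 123 of 21930 protein-coding genes of the annotation (0.561%). The commonest form, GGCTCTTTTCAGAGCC, followed the stop codon of 37 members, and these were all the protein-coding genes that had it. The stem-loops of the 3 cluster genes with the highest RNA levels and of H2afx read as follows from 5′ to 3′ on the gene's strand, with the stem and loop in capitals and the flanks in lower case.
Hist1h1c: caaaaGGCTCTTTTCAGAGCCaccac
Hist1h2bc: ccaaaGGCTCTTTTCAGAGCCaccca
Hist1h4i: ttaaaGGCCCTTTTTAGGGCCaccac
H2afx: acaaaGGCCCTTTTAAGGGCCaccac

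These stem-loops lie downstream of the coding sequence. That of Hist1h1c begins 25 bases after the stop codon, at chr13:23831381-23831396 on the plus strand, that of Hist1h2bc 35 bases after it, at chr13:23776516-23776531 on the plus strand, that of Hist1h4i 31 bases after it, at chr13:22132835-22132850 on the minus strand, and that of H2afx 47 bases after it, at chr9:44143323-44143338 on the plus strand. In all 4 genes the annotated transcript runs on past the stem-loop, by 839 bases in Hist1h1c, 272 in Hist1h2bc, 150 in Hist1h4i and 816 in H2afx.

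Promoters of the cluster genes also shared letters that the symbol rule did not use. In RefSeq promoters of GRCm38.p6, each 300 bases long and mostly upstream of the transcription start, CCAAT was present on either strand in 85.5% of 62 promoters of cluster genes, 30.3% of 33 promoters of genes outside the clusters and 37.4% of all 32851 promoters. TATAAA, searched on both strands in the same way, was present in 56.5%, 9.09% and 13.6%, respectively. The promoters outside the clusters include those of the H2al genes, so their shares are not those of the replacement variants alone. These matches are descriptions of sequence and no evidence of binding. The promoters of Hist1h1c, the highest cluster gene, and of H3f3a and H3f3b, which encode the same protein, are given with CCAAT (or ATTGG on the other strand) and TATAAA in capitals. They are read 5′ to 3′ on the gene's strand, at chr13:23738557-23738856 (plus), chr1:180813556-180813855 (minus) and chr11:116024455-116024754 (minus) of GRCm38.p6.
Hist1h1c: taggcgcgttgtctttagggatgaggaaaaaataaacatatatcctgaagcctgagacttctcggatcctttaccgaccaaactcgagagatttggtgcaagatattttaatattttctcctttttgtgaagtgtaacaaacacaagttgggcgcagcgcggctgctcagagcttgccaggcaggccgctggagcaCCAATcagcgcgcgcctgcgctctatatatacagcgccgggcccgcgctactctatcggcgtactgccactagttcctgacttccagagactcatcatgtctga
H3f3a: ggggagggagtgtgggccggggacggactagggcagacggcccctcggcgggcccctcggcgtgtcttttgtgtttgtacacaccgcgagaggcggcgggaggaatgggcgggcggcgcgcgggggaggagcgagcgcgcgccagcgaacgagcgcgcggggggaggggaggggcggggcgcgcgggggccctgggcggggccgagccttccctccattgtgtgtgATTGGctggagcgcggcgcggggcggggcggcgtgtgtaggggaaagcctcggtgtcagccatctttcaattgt
H3f3b: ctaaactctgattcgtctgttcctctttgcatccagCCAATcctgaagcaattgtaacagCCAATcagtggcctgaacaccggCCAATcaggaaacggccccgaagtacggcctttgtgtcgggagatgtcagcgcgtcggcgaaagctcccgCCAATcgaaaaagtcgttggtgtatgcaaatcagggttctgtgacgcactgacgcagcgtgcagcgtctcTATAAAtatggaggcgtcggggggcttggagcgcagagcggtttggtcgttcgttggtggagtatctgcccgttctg

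Before the levels are given, some facts of the series have to stand beside them. Levels were given in TPM, a unit of transcript abundance from which gene length has been taken out and where all libraries share a fixed total, so that levels can be compared between genes but hold no read counts. The libraries held 249841492 to 340580330 reads. WT replicates 1 and 2 stood apart from the other 4 libraries: 1.2% and 1.3% of their reads were ribosomal, against 2.69% to 3.3% elsewhere, and each gene's deviation from its mean correlated with its GC content at a Spearman's rho of -0.61 and -0.43, against 0.33 to 0.44 in the other libraries. Lrp5 itself had a WT mean of 1.29 ± 0.15 TPM and an LRP5-null mean of 1.84 ± 0.21 TPM (SD, n = 3 each; adjusted p = 0.136 from limma), so each direction below rests on the labels. Lyz2, the gene into which Cre is inserted, had means of 25960 ± 1039 and 13790 ± 375 TPM (SD, n = 3 each; log2 fold change -0.91, adjusted p = 0.003508 from limma). The labels name an mRNA library kit, whereas the study's methods name a stranded total RNA kit, so it is not settled whether transcripts were selected by their poly(A) tails. If they were, stem-loop mRNAs would be counted only in part.

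Most histone genes were at or near 0. Of the 110 members, 24 were listed at 0 in all 6 libraries, 62 had a mean above 0 and below 1 TPM, 12 had a mean of 1 to 5 TPM, 7 of 5 to 50 TPM and 5 of at least 50 TPM. Among the 18 H2al genes, which belong to a family of short H2A histones, 15 were at 0 throughout, and H2al1m had the highest mean, 0.283 TPM. H1foo, the oocyte form of linker histone, and H1fnt, a testis form, were also listed at 0 in every library. Of the 86 members under a mean of 1 TPM, Hist1h4k was the highest, at 0.934 TPM.

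The highest levels belonged to genes outside the clusters. H3f3a and H3f3b, which both encode the variant H3.3, had means of 753 and 527 TPM over the 6 libraries, followed by H2afz at 217, Hist1h1c at 211 and H2afy at 82.9 TPM. Together, H3f3a and H3f3b held 99.67% to 99.88% of the TPM of the H3 cluster genes and themselves in each library. The 12 H3 cluster genes summed to 1.47 to 4.29 TPM per library. Within the clusters, Hist1h1c, a gene of linker histone H1, held 64.5% to 68.6% of the summed cluster TPM. The median of mean TPM was 0.34 over the 70 cluster genes and 0 over the 40 genes outside.

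The 3 cluster genes above 5 TPM were among those whose annotated transcript runs past the stem-loop. Of the 60 cluster genes with the stem-loop, 18 had a transcript annotated for at least 100 bases beyond it, and 3 of these, Hist1h1c, Hist1h2bc and Hist1h4i, were above 5 TPM. The other 42 were annotated for fewer bases beyond it, and their highest mean was 3.88 TPM, in Hist1h1e. The median of mean TPM was nearly equal in both groups, 0.395 and 0.387 TPM. These counts describe the annotation of NCBIM37, and the ends of the transcripts were not measured.

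**Figure D1:**
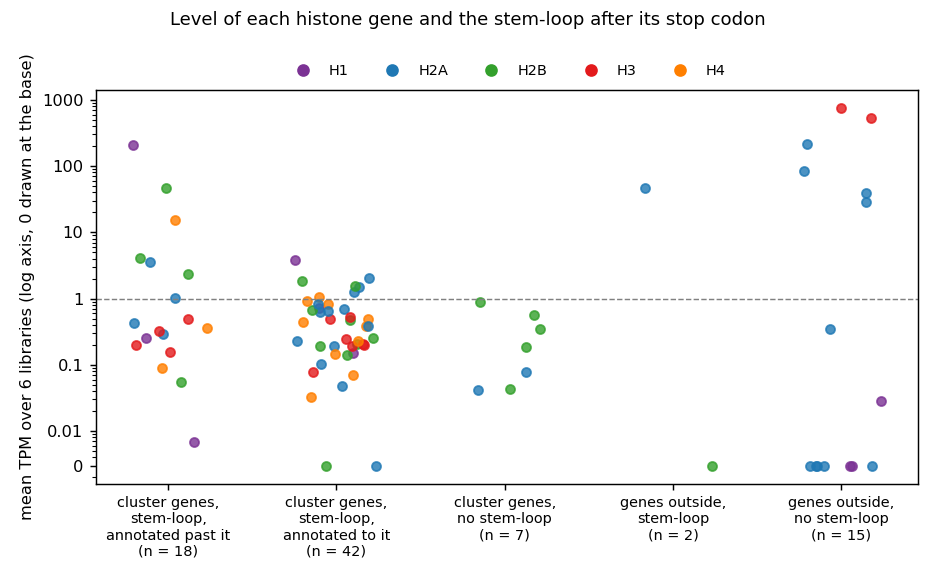
Mean TPM over the 6 libraries (log axis, with 0 drawn at the base) of each histone gene whose stop codon could be searched, grouped by location, by the presence of the stem-loop and by whether the annotated transcript runs at least 100 bases past it. Each point is 1 gene, coloured by histone class, and the dashed line marks 1 TPM. Hist1h1c at 211 TPM stands highest among the cluster genes, and only 3 points in the 3 cluster columns lie above 5 TPM.

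Reads of near-identical genes could have been divided among them by the authors' quantification, so the level of a single cluster gene is uncertain. The 13 H4 cluster genes encode 1 protein through 12 different coding sequences, and 10 of them were at least 95% identical in coding sequence to another member. The 11 H3 cluster genes with a coding sequence encode 3 proteins, and 10 of these genes had such a partner, as did 16 of 19 H2A and 12 of 18 H2B cluster genes. Hist1h4i was 96.8% identical to its nearest member, Hist1h4m, and Hist1h2bc was 98.9% identical to Hist1h2bj. None of the 6 H1 cluster genes had a partner at this cutoff, and Hist1h1c was 83.0% identical to its nearest member, Hist1h1d. Sums over a class are therefore given below beside single genes, though such a division can move them too where partners differ in annotated length, as do Hist1h2bc (736 bases) and Hist1h2be (2433 bases).

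Of the 110 members, 24 had a mean of at least 1 TPM and were tested with limma on log2(TPM + 1), a scale that understates differences of low genes. No member passed an adjusted p of 0.05, which 0.532% of all 9775 genes tested passed. Unadjusted, 9 of the 24 had a p under 0.05, as had 23.5% of all genes tested. The log2 fold change was above 0, that is, higher in LRP5-null libraries, in 21 of 24 members and in 58.8% of all genes tested, and its median was 0.16 over the members and 0.04 over all genes. The groups did not overlap in 7 members (29.2%), 6 of them higher (25%) and 1 lower in LRP5-null libraries, against 29.7% of all genes, 17.4% higher and 12.3% lower. The share of members without overlap was thus close to that of all genes. Hist1h2bn and Hist1h2ac passed the filter with a WT mean below 1 TPM, at 0.968 and 0.951 TPM, so that their LRP5-null libraries brought them over it.

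WT replicate 3 decided the calls. Without it, 1920 of 9775 genes had an adjusted p under 0.05 (19.6%), 12.1% of all genes in the higher direction, and among the 24 members there were 8, all higher in LRP5-null libraries (33.3%): H2afj, H2afv, H2afx, H2afy, Hist1h1e, Hist1h2bb, Hist1h2bn and Hist1h4i. The adjusted p of these 8 then lay between 0.01392 and 0.04627 (limma). In the 2 WT libraries left, Hist1h2bb was 0.800 and 1.03 TPM and Hist1h2bn 0.879 and 0.538 TPM. Hist1h2bn passed the filter through its LRP5-null libraries, so its call is only a description. The 2 WT libraries of that fit are the pair that stood apart in ribosomal reads and GC content, and the part of these properties in the calls was not tested beyond the alternatives given here.

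**Figure D2:**
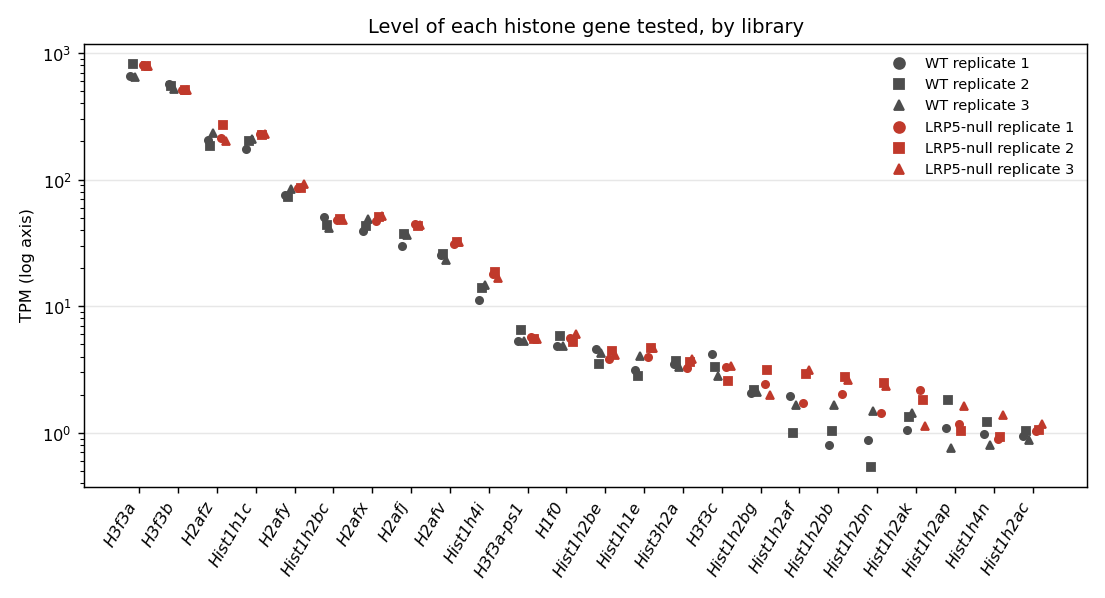
TPM (log axis) of the 24 histone genes tested in each of the 6 libraries, ordered by mean level. Grey symbols are WT and red symbols LRP5-null libraries, with replicate number by shape. Levels span from H3f3a at 753 TPM to Hist1h2ac at 1.02 TPM, a range far wider than any difference between the groups.

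Histone H3.3, the variant placed in chromatin outside replication, is made from both H3f3a (minus strand, chr1:182730963-182744074 of NCBIM37) and H3f3b (minus strand, chr11:115883226-115889276). Their coding sequences are 76.9% identical, whereas the 136 residues of their proteins are 100% identical. H3f3a was 660, 816 and 652 TPM in WT replicates 1 to 3 and 807, 791 and 791 TPM in LRP5-null replicates 1 to 3. WT replicate 2 was the highest of all 6, and the other 2 WT libraries lay below the LRP5-null libraries (log2 fold change 0.17, standard error 0.093, adjusted p = 0.298 from limma). The value was 0.29 with the GC and length trends removed, 0.28 without WT replicate 2 and 0.10 with median-ratio scaling. H3f3b was 563, 549 and 523 TPM in WT and 509, 508 and 513 TPM in LRP5-null libraries. Here every LRP5-null library was below every WT library, by a small margin (log2 fold change -0.10, standard error 0.058, adjusted p = 0.352 from limma), and after removal of the trends with GC content and length the value was 0.02.

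The ratio of both genes, looked at after their values had been seen, was 1.17, 1.49 and 1.25 in WT and 1.59, 1.56 and 1.54 in LRP5-null libraries. All 3 LRP5-null ratios lay above the WT ratios, at 1.56 ± 0.022 against 1.30 ± 0.16 (SD, n = 3 each; two-sided exact permutation test, p = 0.1, which no comparison of 3 with 3 can go below). The sum of H3 TPM from the cluster genes, H3f3a and H3f3b overlapped between the groups, at 1178 to 1368 in WT and 1303 to 1320 in LRP5-null libraries.

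**Figure D3:**
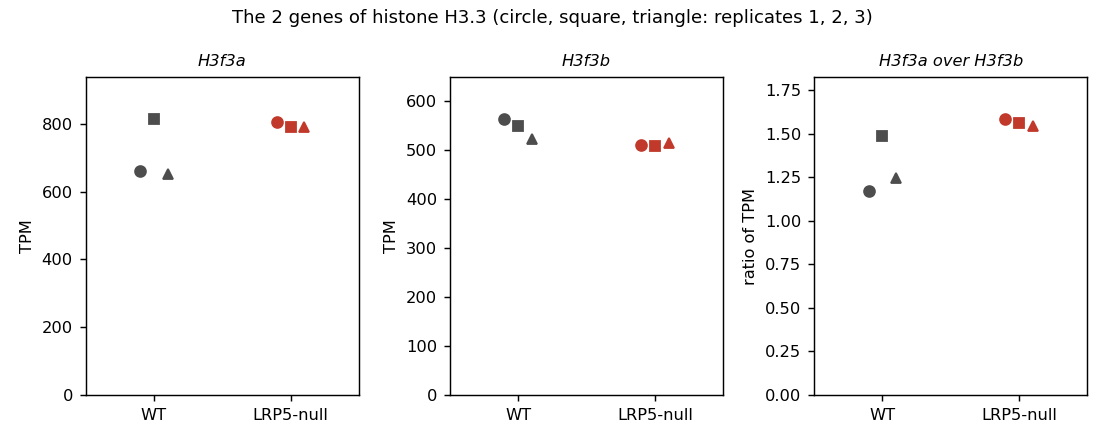
TPM of H3f3a and H3f3b, and the ratio of H3f3a to H3f3b, in each library, with axes from 0. The ratio was 1.17 to 1.49 in WT (grey) and 1.54 to 1.59 in LRP5-null libraries (red).

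The pseudogene H3f3a-ps1, on the X chromosome, followed the WT pattern of H3f3a at a far lower level, at 5.33, 6.48 and 5.29 TPM in WT and 5.75, 5.52 and 5.54 TPM in LRP5-null libraries. H3f3c, annotated as a pseudogene on chromosome 2, was 3.44 ± 0.69 TPM in WT and 3.08 ± 0.43 TPM in LRP5-null libraries (SD, n = 3 each). Reads of these copies and of their parent gene may have been exchanged in the quantification, so both levels are uncertain. H3f3aos, whose gene overlaps the start of H3f3a on the opposite strand, had a mean of 0.671 TPM. Without knowledge of how strand was used, reads in the stretch that both genes share cannot be assigned to either of them.

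Of the H2A variants, H2afv had the smallest p among all members. H2afv and H2afz encode the forms of H2A.Z, a variant found around transcription start sites, and their proteins are 96.9% identical while their coding sequences are 78.5% identical. H2afv (minus strand, chr11:6327229-6344446) was 25.5, 25.8 and 23.1 TPM in WT and 30.8, 32.1 and 32.4 TPM in LRP5-null libraries. The groups were clearly apart, at 24.8 ± 1.5 and 31.8 ± 0.87 TPM (SD, n = 3 each), with a log2 fold change of 0.35 (standard error 0.074, adjusted p = 0.0846 from limma). With the trends of GC content and length removed the adjusted p was 0.0273 from limma. This was the only setting besides the omission of WT replicate 3 in which a member was called. In it 431 of 8853 genes were called, and 1 of 21 members (4.76%). H2afz, the more abundant form, was 204, 184 and 235 TPM in WT and 213, 268 and 201 TPM in LRP5-null libraries. These ranges overlapped widely (log2 fold change 0.13, standard error 0.13, adjusted p = 0.583 from limma), and against WT replicate 3 alone the log2 fold change was -0.06.

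H2afj encodes H2A.J, a form of H2A that differs from the canonical protein mainly at its C-terminal end, and it lies on chromosome 6 from 136756769 to 136758595. Its level was 29.8, 37.1 and 36.8 TPM in WT and 44.6, 43.2 and 44.1 TPM in LRP5-null libraries. All LRP5-null libraries were above the WT libraries, of which WT replicate 1 was the lowest (log2 fold change 0.35, standard error 0.095, adjusted p = 0.120 from limma). H2afy, the gene of macroH2A1, which carries a large domain beside its histone fold, was 75.6, 72.8 and 84.0 TPM in WT and 86.5, 86.2 and 92.4 TPM in LRP5-null libraries. The groups again did not overlap, though WT replicate 3 came close to the lowest LRP5-null library (log2 fold change 0.19, standard error 0.077, adjusted p = 0.196 from limma), and the log2 fold change was 0.11 with the GC and length trends removed and 0.072 against WT replicate 3 alone.

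H2afx encodes H2A.X, which is phosphorylated beside DNA breaks, and among the searched genes outside the clusters it was the single one with RNA above 0 to have the stem-loop printed above as well as a longer annotated transcript. It was 39.1, 43.0 and 48.9 TPM in WT and 47.4, 50.2 and 51.9 TPM in LRP5-null libraries. WT replicate 3 lay within the LRP5-null range (log2 fold change 0.19, standard error 0.094, adjusted p = 0.259 from limma), and the log2 fold change was 0.016 with the GC and length trends removed, 0.12 without WT replicate 1 and 0.027 against WT replicate 3 alone. H1f0, the gene of the linker histone H1.0 known from cells that have left the cell cycle, was 5.18 ± 0.58 TPM in WT and 5.63 ± 0.38 TPM in LRP5-null libraries (SD, n = 3 each), with overlapping values. Over the 10 tested genes outside the clusters, 7 were higher and 3 lower, with a median log2 fold change of 0.15. Of all genes tested, 58.8% were higher, with a median of 0.04. The 3 lower ones were H3f3b and the annotated pseudogenes H3f3a-ps1 and H3f3c.

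The 14 cluster genes tested had log2 fold changes above 0, from 0.01 in Hist1h2be to 0.69 in Hist1h2bb, with a median of 0.19, beside 58.8% of all genes above 0. This count includes Hist1h2bn and Hist1h2ac, which the filter took in through their LRP5-null libraries, so their sign was favoured by the filter. Without a filter 50 of 68 cluster genes were above 0, beside 60.2% of all genes. The count was 12 of 14 with median-ratio scaling, which put 45.2% of all genes above 0. It was also 12 of 14 with the GC and length trends removed, beside 49.99% of all genes. With each library left out in turn it was 11 to 14, beside 55.11% to 61.02% of all genes. Of the 14 genes, 3 had no overlap between groups (Hist1h1c, Hist1h4i and Hist1h2bb), all 3 higher in LRP5-null libraries. That is 21.4%, against 17.4% of all genes without overlap in that direction and 29.7% in either. An unadjusted p under 0.05 was found in 6 of the 14, and in 23.5% of all genes.

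Hist1h1c, the gene of linker histone H1.2, lies in the Hist1 cluster on chromosome 13 from 23830676 to 23832235 on the plus strand of NCBIM37. Its level was 174, 203 and 209 TPM in WT and 230, 224 and 227 TPM in LRP5-null libraries. The LRP5-null libraries had an SD of 2.76 TPM and lay above all WT libraries, of which WT replicate 1 was the lowest (log2 fold change 0.22, standard error 0.082, adjusted p = 0.175 from limma). The log2 fold change of Hist1h1c was 0.10 with the GC and length trends removed, 0.14 without WT replicate 1 and 0.12 against WT replicate 3 alone. Hist1h1e, the gene of H1.4, was 3.11, 2.82 and 4.03 TPM in WT and 3.97, 4.68 and 4.69 TPM in LRP5-null libraries. WT replicate 3 overlapped the lowest LRP5-null library (log2 fold change 0.34, standard error 0.12, adjusted p = 0.163 from limma), and the value was 0.15 with those trends removed and 0.11 against WT replicate 3 alone.

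Hist1h4i, a gene of histone H4 on the minus strand at chr13:22132685-22133221, was 11.2, 14.0 and 14.6 TPM in WT and 18.1, 18.7 and 16.8 TPM in LRP5-null libraries. Every LRP5-null library was above every WT library (log2 fold change 0.41, standard error 0.11, adjusted p = 0.113 from limma). The value was 0.23 with the GC and length trends removed and 0.27 against WT replicate 3 alone. Hist1h4n and Hist1h4k, the next H4 genes by level, were near 1 TPM with overlapping groups, and the log2 fold change of Hist1h4n was 0.05 (adjusted p = 0.850 from limma).

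Among the H2B genes, Hist1h2bc was the highest, at 50.8, 43.8 and 41.5 TPM in WT and 48.1, 49.1 and 48.0 TPM in LRP5-null libraries. WT replicate 1 was above all LRP5-null libraries and the other 2 WT libraries below them (log2 fold change 0.10, standard error 0.087, adjusted p = 0.528 from limma), and the value was 0.0035 with the GC and length trends removed and 0.22 against WT replicate 3 alone. Hist1h2be was 4.13 ± 0.57 TPM in WT and 4.15 ± 0.31 TPM in LRP5-null libraries, and Hist1h2bg was 2.13 ± 0.062 and 2.51 ± 0.57 TPM (SD, n = 3 each). The groups overlapped in both genes.

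Hist1h2bb and Hist1h2bn had the largest log2 fold changes of the 24 members tested, 0.69 and 0.66, and were singled out after their values had been seen. With a pseudocount of 0.1 their order was the opposite, at 1.06 and 1.09. Hist1h2bb was 0.800, 1.03 and 1.66 TPM in WT and 2.01, 2.75 and 2.63 TPM in LRP5-null libraries (standard error 0.16, adjusted p = 0.0953 from limma). Hist1h2bn was 0.879, 0.538 and 1.49 TPM in WT and 1.43, 2.48 and 2.34 TPM in LRP5-null libraries (standard error 0.20, adjusted p = 0.139 from limma). In both genes WT replicate 3 was the WT library nearest to the LRP5-null libraries, and in Hist1h2bn it lay among them. Against WT replicate 3 alone the log2 fold changes were 0.37 and 0.29, and since Hist1h2bn passed the filter through its LRP5-null libraries, its values are a description.

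**Figure D4:**
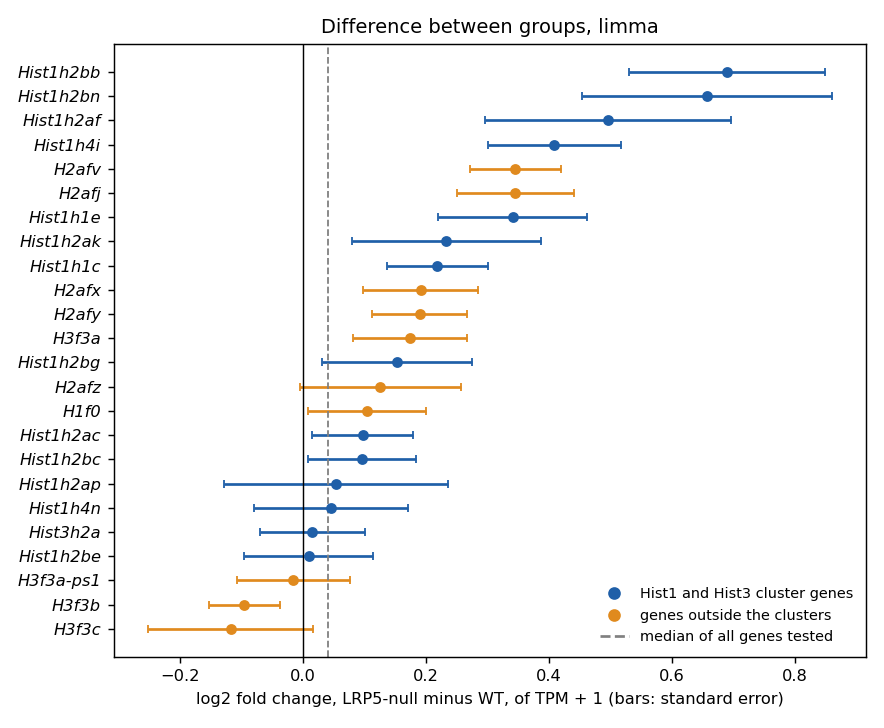
Log2 fold change (LRP5-null minus WT, on the scale of log2(TPM + 1)) with its standard error for the 24 histone genes tested, from limma. Blue points are cluster genes and orange points genes outside the clusters, and the dashed line is the median of all genes tested, 0.04. Of the points, 21 lie above 0, and the 3 below it are H3f3a-ps1, H3f3b and H3f3c, each of which was above 0 in at least 1 alternative.

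Summed over all 70 cluster genes, including those below the filter, the level was 270, 296 and 306 TPM in WT and 340, 339 and 339 TPM in LRP5-null libraries. The LRP5-null sums were nearly equal to each other and 1.17-fold the WT mean, and 1.11-fold WT replicate 3. Most of this sum was Hist1h1c, Hist1h2bc and Hist1h4i, but the other 67 genes showed the same order, at 33.9 to 40.5 TPM in WT and 44.3 to 47.4 TPM in LRP5-null libraries. The 56 cluster genes below the filter summed to 12.9, 14.8 and 18.0 TPM in WT and 20.4, 18.3 and 19.4 TPM in LRP5-null libraries. Again WT replicate 3 came closest to the LRP5-null range. No test was made on sums over members, and none of these sums, here or below, was adjusted for GC content or length. The cluster genes tested had a median GC content of 57.56%, against 49.98% over all genes tested. Deviations in WT replicates 1 and 2 fell with GC content, and those in the other libraries rose with it. With the GC and length trends removed, the median log2 fold change of the cluster genes tested was 0.088, against 0.19 before. The part of GC content in the sums was not tested.

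By class, the cluster sums of H1, H2A, H3 and H4 did not overlap between groups, whereas those of H2B did. Of all single genes tested, 17.4% were higher without overlap. The sums repeat in part genes given above. In LRP5-null libraries Hist1h1c had a mean of 227 TPM of the H1 sum of 233, and Hist1h4i 17.9 TPM of the H4 sum of 23.3. H1 genes summed to 178 to 214 TPM in WT and 230 to 235 TPM in LRP5-null libraries. H4 genes summed to 14.8 to 20.1 TPM and 21.9 to 24.0 TPM, and H2A genes to 12.5 to 12.7 TPM and 14.7 to 16.4 TPM. The 12 H3 genes, none of which passed the filter, summed to 1.47, 2.73 and 3.74 TPM in WT and 4.29, 4.23 and 4.26 TPM in LRP5-null libraries. In this class the WT libraries differed among themselves by more than WT replicate 3 differed from the LRP5-null libraries. H2B genes summed to 63.1, 55.2 and 55.1 TPM in WT and 62.1, 65.8 and 63.3 TPM in LRP5-null libraries, where WT replicate 1 overlapped them.

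**Figure D5:**
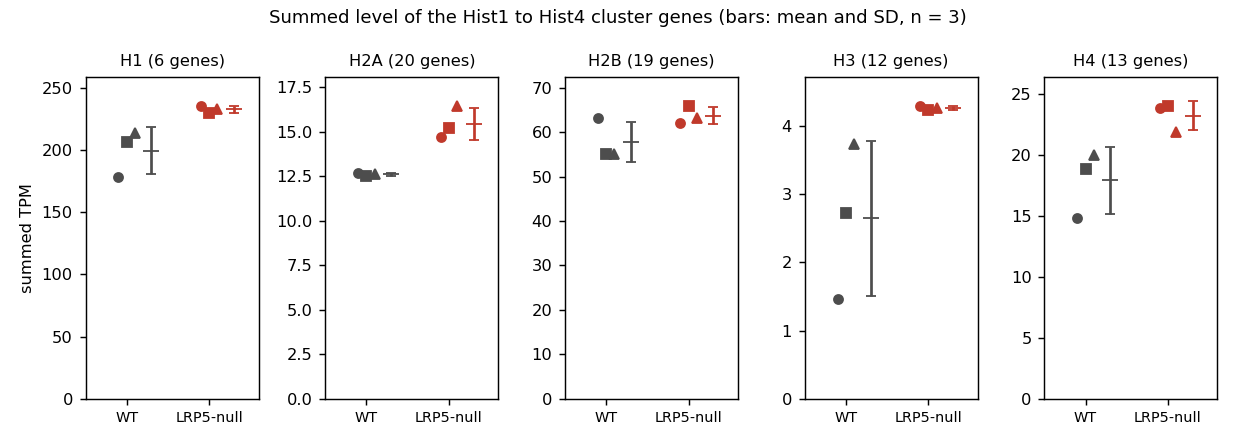
Summed TPM of the Hist1 to Hist4 cluster genes of each histone class in each library, with axes from 0, WT in grey and LRP5-null in red, and the mean and SD (n = 3) beside the points. The H3 panel shows the widest spread among WT libraries, from 1.47 to 3.74 TPM, and only the H2B panel shows an overlap.

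By position, the Hist1 genes lay in 2 blocks of chromosome 13 in NCBIM37, 24 genes from 21807632 to 22135545 and 31 genes from 23622919 to 24026720, with 1 more gene at 51298057 to 51298434. The block with the lower coordinates, which holds Hist1h4i, summed to 19.6 to 25.4 TPM in WT and 29.3 to 31.8 TPM in LRP5-null libraries. The other block, which holds Hist1h1c and Hist1h2bc, summed to 243 to 272 TPM and 299 to 301 TPM. Both blocks were thus apart between the groups, but they include Hist1h4i and Hist1h1c, which were apart by themselves. The 10 Hist2 genes, on chromosome 3 from 96023839 to 96082924, summed to 3.66 to 5.22 TPM in WT and 4.67 to 5.54 TPM in LRP5-null libraries, which overlapped. The 3 Hist3 genes on chromosome 11 and the single Hist4 gene on chromosome 6 overlapped as well, at 3.31 to 3.84 TPM and 0.0165 to 0.0692 TPM over all libraries. In bulk RNA, fewer cells of a type and less RNA per cell cannot be told apart, which holds for all of these sums.

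The factors that make and trim replication-dependent histone mRNAs were measured beside them. Of 16 such genes tested, 0 were called by limma and 2 had an unadjusted p under 0.05, beside 23.5% of all genes. Of the 16, 8 were higher, beside 58.8% of all genes, and 8 lower, with a median log2 fold change of 0.00. Slbp, the gene of the stem-loop binding protein, was 28.3, 25.8 and 28.7 TPM in WT and 27.1, 27.7 and 27.8 TPM in LRP5-null libraries, which overlapped throughout. Slbp was named after its values had been seen. The smallest p values in this list belonged to Casp8ap2, whose protein FLASH takes part in the cleavage of histone pre-mRNA (log2 fold change -0.28, adjusted p = 0.149), to Sympk, a scaffold of the cleavage complex (0.28, adjusted p = 0.152), and to Eri1, an exonuclease of the stem-loop end (-0.16, adjusted p = 0.268, all from limma).

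Histone chaperones, which carry histones to and from DNA, were higher in 20 and lower in 8 of 28 genes tested. None was called by limma, and 6 had an unadjusted p under 0.05, beside 23.5% of all genes. The median log2 fold change was 0.10, and 58.8% of all genes tested were higher. The smallest p values were those of Dek, an abundant chromatin protein (-0.36, adjusted p = 0.142), Ino80, the ATPase of a remodelling complex that acts on H2A.Z (0.27, adjusted p = 0.144), and Anp32e, a chaperone of H2A.Z (0.23, adjusted p = 0.160, all from limma). Dek was 44.3, 41.8 and 33.4 TPM in WT and 31.4, 28.7 and 31.9 TPM in LRP5-null libraries, and WT replicate 3 was nearest to the latter.

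Genes of S phase and cell division also had mostly higher values in LRP5-null libraries. Of 32 tested, 27 had a log2 fold change above 0, beside 58.8% of all genes, and 11 were higher without overlap between groups (34.4%), beside 17.4% of all genes. The median was 0.15, and 0 were called by limma (10 at an unadjusted p under 0.05, beside 23.5% of all genes). The smallest p values belonged to Tk1, thymidine kinase of S phase (0.37, adjusted p = 0.101), Cenpa, the centromeric variant of H3 that the symbol rule does not take in (0.29, adjusted p = 0.107), and Birc5, or survivin, of mitosis (0.27, adjusted p = 0.119, all from limma). Cenpa was 24.5, 27.2 and 27.8 TPM in WT and 32.6, 32.0 and 32.9 TPM in LRP5-null libraries. The level summed over this list was 457 to 473 TPM in WT and 508 to 527 TPM in LRP5-null libraries. The part of dividing precursors in the histone values was not tested.

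Neutrophil extracellular traps form after Padi4 converts arginines of histones to citrulline. Padi4 was abundant, at 424, 473 and 559 TPM in WT and 517, 522 and 558 TPM in LRP5-null libraries, and these ranges overlapped (log2 fold change 0.14, standard error 0.10, adjusted p = 0.433 from limma). Of 5 genes of trap enzymes tested, 5 were higher, beside 58.8% of all genes. By limma 0 were called and 2 had an unadjusted p under 0.05, beside 23.5% of all genes. The trap enzyme genes with the smallest p were the granule proteases Elane (0.32, adjusted p = 0.124), Ctsg (0.33, adjusted p = 0.163) and Prtn3 (0.33, adjusted p = 0.303, all from limma). These proteases are made by early neutrophil precursors. The early neutrophil list, which consists of these 3 and Mpo, summed to 12.0 to 13.6 TPM in WT and 14.8 to 17.1 TPM in LRP5-null libraries.

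The labelled cell type was borne out by its markers, since the 6 neutrophil markers were measured in all libraries and summed to 322300 to 382600 TPM. None of the 6 was called by limma, but 3 had no overlap between the groups. S100a9 (means of 201100 in WT and 227500 TPM in LRP5-null libraries) and Camp (13810 and 17620 TPM) were higher, beside 17.4% of all genes. Mmp8 (3807 and 2857 TPM) was lower, beside 12.3% of all genes. Markers of other cells were low, at sums of 2.33 to 61.7 TPM per list and library, and no marker in the table was at 0 in all libraries. The sums of 3 lists had no overlap between the groups, in 2 of them mostly through a single gene. Of T and NK cells (10.2 to 12.6 TPM in WT and 14.9 to 16.4 TPM in LRP5-null libraries) it was mostly Cd3d, with means of 10.1 and 13.9 TPM. Nkg7 (1.23 and 1.59 TPM) and Ncr1 (0.0698 and 0.11 TPM) also had higher means in LRP5-null libraries, whereas Cd3e (0.133 and 0.0681 TPM) and Cd8a (0.0447 and 0.0316 TPM) had lower ones. Of eosinophils and basophils (9.41 to 12.1 TPM and 12.5 to 13.9 TPM) it was mostly Prg2, with means of 1.02 and 2.79 TPM (adjusted p = 0.0341 from limma), beside Siglecf at 8.27 and 8.47 TPM and Mcpt8 at 1.81 and 1.69 TPM. Epx, near 0 in all libraries and not tested, was also higher in each LRP5-null library than in any WT library, at means of 0.0195 and 0.108 TPM. Platelet markers summed to 2.33 to 3.62 TPM and 3.69 to 4.19 TPM. Monocyte and macrophage, B cell and erythroid markers overlapped between the groups. The share of intronic reads was 7.78% to 9% in WT and 10.6% to 11.2% in LRP5-null libraries. The part of these differences in the histone values was not tested.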

How the data were processed

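RNA of bone marrow neutrophils was sequenced in 6 libraries, 3 of each label. The authors aligned the reads to mm9 and name DESeq2 for quantification, and they deposited a table of TPM, which was used here. How TPM was computed is not given in the sources used here. A read summary deposited beside it gives the read counts of each library, percent values for read classes and a ratio for coverage bias at either transcript end. The summary lists paired-end reads of 94 bases, whereas the methods name single-end reads, and the methods add a sort on CD11b and Ly6G to the density gradient of the labels.

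The 9775 genes whose mean reached 1 TPM were compared on log2(TPM + 1) in limma 3.58.1 (R 4.3.3), using a mean-variance trend, no covariate and Benjamini-Hochberg adjustment over all genes tested, two-sided. No count model was used, since TPM holds no counts and the depth behind a single value is unknown. The fit was tested on simulated data with noise drawn independently for each gene and library. Trends shared over genes, such as that with GC content, were not part of it. The ratio of H3f3a to H3f3b was compared with an exact permutation test.

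Members and gene lists were chosen with earlier results of these data known. Named were members called, members with a mean of at least 5 TPM, the 3 highest of each histone class, the 3 genes with the smallest p of each companion list, Lrp5 and Lyz2. Coordinates, lengths, GC content and stem-loops came from GENCODE M1 (NCBIM37), in which 97 of 110 members were found, 81 by identifier and 16 by symbol. The files' identifiers come from a newer annotation. Promoters of 94 members came from RefSeq (GRCm38.p6). Alternatives were another pseudocount, filter, scaling and shrinkage, removal of GC and length trends, the replicate number as a block, and each library left out. The ribosomal share as a covariate and WT replicate 3 as the sole WT library were added after the data had been seen. The authors' other experiments were not analysed here.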

Additional observations from a re-analysis of the deposited data

How the results depend on the processing

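No histone gene was called in 14 of 16 alternatives. Leaving out WT replicate 3 gave 8 calls and removing GC and length trends 1 (H2afv), and over the libraries left out in turn the calls ranged from 0 to 8 members and from 2 to 1920 of all genes. All genes called numbered 52 of 9775, 3 of 23220 without a filter and 29 of 6745 at a mean of at least 5 TPM. They numbered 83 with median-ratio scaling, 431 of 8853 with GC and length trends removed and 6 with the ribosomal share as a covariate. The median log2 fold change of the cluster genes (0.19) was 0.061 without a filter, 0.12 with median-ratio scaling, 0.088 with the trends removed, and 0.14 to 0.24 over the libraries left out. That of the genes outside the clusters (0.15) was 0.016 without a filter, 0.077 with median-ratio scaling, 0.091 with the ribosomal covariate and 0.078 against WT replicate 3 alone. Median-ratio scaling moved the median of all genes from 0.041 to -0.022.

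Signs of values near 0 turned. H2afz was -0.059 against WT replicate 3 alone, and H3f3b 0.019 with the trends removed. H3f3a-ps1 was -0.059 to 0.066 over the libraries left out, 0.040 with the ribosomal covariate and 0.070 against WT replicate 3 alone. Hist1h2be was -0.082 to 0.076 over the libraries left out, -0.049 with median-ratio scaling, -0.026 with the covariate and -0.041 against WT replicate 3 alone. Hist1h4n was -0.060 to 0.12 over the libraries left out and -0.14 with the trends removed. H3f3c (-0.12) was 0.0010 without WT replicate 1, 0.027 with the covariate and 0.083 against WT replicate 3 alone. Over all alternatives Hist1h2ap ranged from -0.16 to 0.36 and Hist3h2a from -0.042 to 0.078. The cause was not tested for any of these.

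With the replicate number as a block, 4 genes and 0 members were called, against 52 and 0. The deviations of samples with the same number correlated at 0.23, -0.01 and 0.13 for numbers 1 to 3, so the numbers are not taken to pair the samples. GC content was known for 21 of the 24 members tested, for all 14 in the clusters but for 7 of 10 outside (70%), so the GC check is void for a summary over the latter, though H2afv and H3f3b have GC values of their own. With TPM alone, counting error cannot be given.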
